A study of Danio rerio with 3 samples.

Results

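Transcripts of the cytosolic ribosomal proteins were examined in single cells from the lesioned spinal cord of zebrafish larvae. The 84 genes were the rows whose symbol begins with rpl or rps followed directly by a number, together with rplp0, rplp1, rplp2, rplp2l and rpsa, out of 32521 rows in each matrix. The rps6k kinases were left out. Of the 84 genes, 48 carry rpl symbols (large subunit) and 36 carry rps symbols (small subunit). The rule reads symbols only. It therefore also takes in rps19bp1, whose product binds Rps19 and is not part of the ribosome, and leaves out rows such as RPL37A, written in capitals, and the fusion genes faua and faub.

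The study asked what the loss of sema4ab, a semaphorin gene, does to cells at a regenerating spinal lesion. Embryos were injected at the single-cell stage with a control guide RNA (gControl) or with a highly active synthetic CRISPR RNA (haCR) against sema4ab (gSema4ab), which mutates the target in somatic cells, so that gSema4ab larvae are somatic mutants and not a line. All larvae in both groups had a spinal lesion at 3 days post-fertilization and were collected at 4 days, 1 day after the lesion, so no unlesioned tissue is compared here. Each group was a pool of 50 larvae from which the lesion site was cut, dissociated, sorted and encapsulated with the 10x Genomics 3′ kit. There was 1 gControl library. The 2 gSema4ab libraries are technical repeats (R1 and R2) and count as 1 sample.

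A ribosome is built from ribosomal RNA and one copy of nearly every ribosomal protein, so cells keep the production of these proteins in step. Their mRNAs are among the most abundant in most cells. They begin with a terminal oligopyrimidine motif through which mTOR signalling controls their translation. Many fish genes are kept as duplicated pairs, and some ribosomal proteins have a second, related gene (a paralog) that is used in certain tissues. In mammals, a loss of 1 copy of genes such as RPS19, RPL5 or RPL11 causes Diamond-Blackfan anaemia, in which red cell precursors fail.

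After filters, 12247, 12079 and 11940 cells remained in gControl, R1 and R2, with 113423532 to 122658355 unique molecular identifiers (UMIs, one for each captured mRNA molecule) per library. The median cell held 7199 UMIs in gControl, 6477 in R1 and 6738 in R2. Between 46 and 67 cell barcodes were shared by any pair of libraries. Transcripts of the targeted gene sema4ab stood at 51.2 CPM (counts per 1e6 UMIs) in gControl, 29.1 in R1 and 30.6 in R2. A gene-level UMI count does not tell intact from mutated transcripts, so this does not measure the mutation. Cells fell into 42 clusters, of which 32 were given 1 of 21 class names from marker genes and 10 stayed unnamed. Neurons and ependymo-radial glia (ERGs, the progenitors of the zebrafish cord) were found in every library, but most cells came from skin, muscle, connective tissue and blood around the lesion. With 1 pool per condition no test between conditions can be made. The differences below are given with each library's value, and a gene is called higher or lower only where both repeats lie at least 0.25 on the log2 scale from gControl, with a mean of at least 50 CPM and at least 20 UMIs. Intervals in brackets are exact 95% intervals that cover counting error only.

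The 84 genes together took 24.2% of all UMIs in gControl (29686046 UMIs), 26.8% in R1 (30398483 UMIs) and 27.0% in R2 (30800211 UMIs). Both repeats were higher than gControl, by 0.15 in R1 and 0.16 in R2 on the log2 scale. In the median cell the share was 19.6%, 22.7% and 23.2%. The division of these UMIs between the subunits differed little, with 43.5%, 43.3% and 43.4% from small-subunit genes. Globin transcripts, the dominant product of red blood cells, took 3.89%, 5.83% and 6.51% of UMIs, and with the red blood cells left out the log2 difference of the ribosomal protein share was 0.18. Cells with more UMIs tended to hold a larger share: splitting every cluster of a library at its median UMI count, the deeper cells had the higher share in 102 of 119 splits, by a median of 2.83 percentage points. The part of depth in the difference between libraries was not tested.

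The level differed far more between cell classes than between libraries. In gControl the share ran from 6.89% (6.86 to 6.91) of UMIs in neurons to 39.2% (39.2 to 39.3) in myoblasts, the committed muscle precursors marked by myog and jam2a. The ratio of highest to lowest class was 5.70 in gControl, 4.48 in R1 and 4.66 in R2. In summed UMIs myoblasts and neurons held the ends in all 3 libraries. By the median cell, red blood cells lay below the neurons in R1 (6.63% against 7.83%) and R2 (5.96% against 8.02%). Muscle progenitors (pax7a, myf5, meox1) followed the myoblasts with 35.9%, 40.6% and 41.1% in gControl, R1 and R2. Fibroblasts came next with 26.8%, 31.2% and 32.1%. These 3 led the order of named classes in each library. Unnamed clusters were not ranked, and some lay above the fibroblasts or below the neurons. Fibroblasts were exceeded by cluster c12, led by genes such as csf1rb and cxcr3.2 (34.95%, 37.05% and 38.55%), and by c19 (30.98%, 34.47% and 35.35%). They were also exceeded by c2 (28.06%, 32.95% and 34.4%) and c40 (37.33%, 37.18% and 39.83%, from 20, 16 and 8 cells). Cluster c1 lay below the neurons, at 6.28%, 7.92% and 7.68%.

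Differentiated muscle, with parvalbumins and fast myosin chains, held 23.6%, 26.2% and 28.3%, below the myoblasts and the muscle progenitors in every library. Basal epidermis had 23.94%, 26.02% and 26.33%. Most of the other classes lay close together, between 19.1% (xanthophores) and 22.2% (neuromast) in gControl, including macrophages and microglia at 21.01%, 23.46% and 23.21%. Ionocytes, the salt-transporting cells of the skin, held 15.8%, 16.2% and 16.4%, and had the highest mitochondrial share of any class (6.37% of UMIs in gControl).

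Apart from ionocytes, the lowest classes of each library were neural. ERGs held 13.7%, 17.5% and 15.7% (68, 65 and 92 cells), and enteric neurons 10.2%, 15.7% and 16.5%. Oligodendrocytes held 8.06%, 11.98% and 10.99%, and neurons 6.89%, 9.62% and 9.47%. Neural crest glia, at 19.1%, 22.8% and 24.2%, did not share this low level. The name enteric neurons stands here for the enteric nervous system class (vipb, nos1, phox2bb), which was not split by cell type. Shares of the same class in the repeats differed by a median of 0.03 and by at most 0.15 on the log2 scale, the largest in ERGs. Of the 20 steps between neighbouring classes in the gControl order, 6 were larger than that: those from muscle progenitor to fibroblast, from xanthophore to ionocyte, and each further step down through ERGs, enteric neurons and oligodendrocytes to neurons. The other 14 steps were no larger than this repeat difference of ERGs. They were not set against the smaller repeat differences of their own classes. Across the 21 classes the shares of gControl and R1 had a Pearson's r of 0.96 and a Spearman's rho of 0.85, those of gControl and R2 0.95 and 0.75, and those of the repeats 0.99 and 0.94, a description of points that share each library's preparation.

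**Figure D1:**
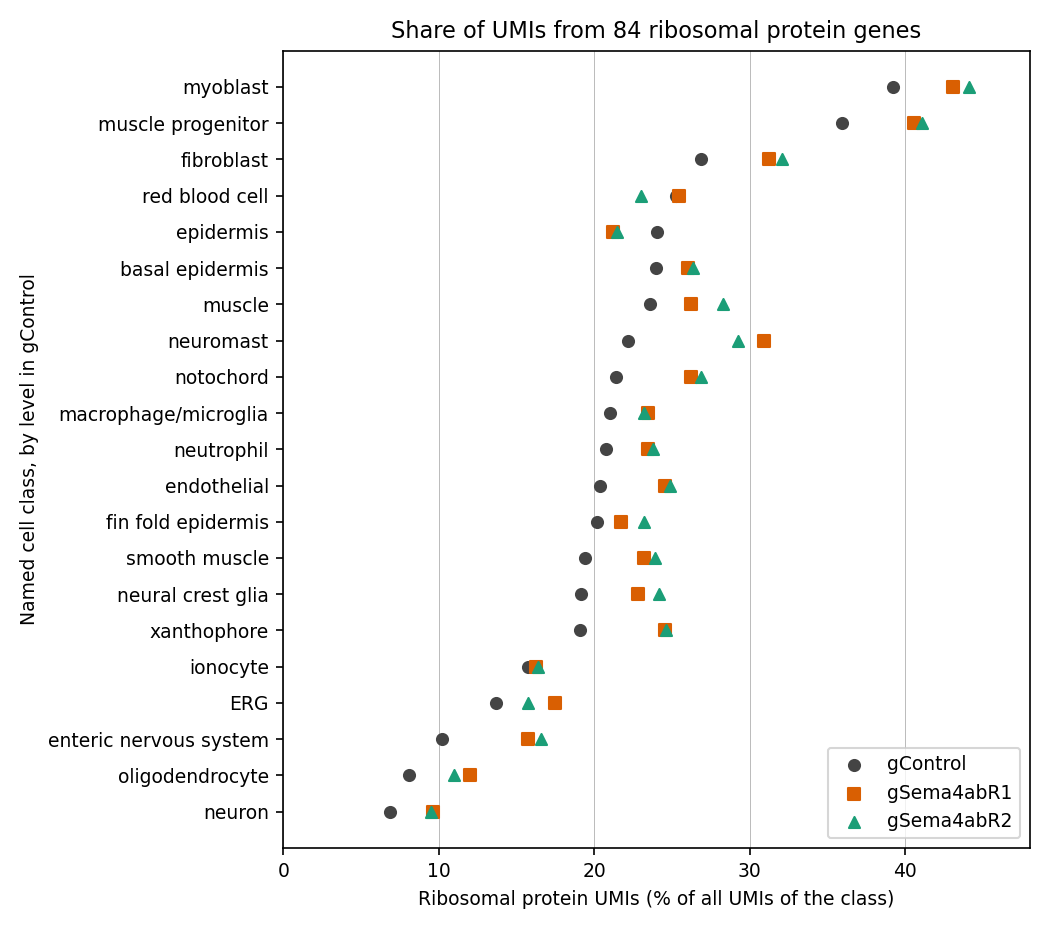
Share of all UMIs that came from the 84 ribosomal protein genes (horizontal axis, percent) in each of 21 cell classes (vertical axis), with 1 point for each library. Myoblasts and muscle progenitors stand at the right (35.9% and above) and neurons at the left (6.89% to 9.62%). Both gSema4ab points lie to the right of gControl in 19 classes and to the left in epidermis.

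Classes were not uniform inside. In red blood cells, cluster c14, which was led by slc4a1a and the haem synthesis genes hmbsb and cpox, held 39.9%, 38.7% and 38.4% ribosomal protein UMIs, beside 39.2%, 43.1% and 44.1% in myoblasts. Cluster c0, led by the globins themselves, held 5.71%, 6.36% and 5.67%, below the neurons. These are shares of all UMIs, of which globins took 65.7%, 72.5% and 75.3% in c0. In c14 globins took 11.3%, 12.5% and 15.2%. So much globin lowers every other share in c0, and shares without globin were not computed for these clusters. The ratio between the 2 clusters was 6.98, 6.09 and 6.76, so a single share for red blood cells (25.2%, 25.5% and 23.0%) describes neither.

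Neurons split likewise. Cluster c17, led by gap43, sox11b and stmn4, genes of growing or young neurons, held 10.6%, 12.9% and 12.9%. Cluster c11, led by the synaptic gene snap25a and the glycine transporter slc6a5, held 5.57%, 8.24% and 8.06%, which gave ratios of 1.91, 1.56 and 1.60. In neutrophils, cluster c20 with lyz, npsn and mpx, genes of granule proteins, held 22.69%, 25.40% and 25.98%, and cluster c21 with il1b, mmp9 and cxcr1 held 14.7%, 19.1% and 18.1%. Xanthophores joined cluster c16, at 25.7%, 30.8% and 32.3%, with cluster c37, at 7.94%, 12.5% and 11.1% (37, 43 and 39 cells). The ratios were 3.24, 2.46 and 2.91, so the class share of 19.1% in gControl describes neither. These clusters were formed without any of the 84 genes among the variable genes, but from the same cells. The differences are therefore descriptions.

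Compared with gControl, the share was higher in both repeats in 19 of 21 classes, lower in both in 1 (epidermis), and split in red blood cells. The log2 difference had a median of 0.24 over classes. It was largest in enteric neurons (0.66), oligodendrocytes (0.51) and neurons (0.47), followed by neuromast (0.44), xanthophores (0.37), notochord (0.31) and neural crest glia (0.29), and it was 0.28 in ERGs. The oligodendrocyte value depended on the clustering and was 0.21 at a coarser resolution of 0.5. Myoblasts, at the top of the order, had 0.15, and ionocytes 0.05. Other values of the enteric neurons differed too. A list of genes of dividing cells, such as pcna, summed to 424, 888 and 816 CPM. Their median cell held 7376, 5028 and 6624 UMIs, and the part of either in the difference was not tested. Within the neurons the difference was 0.55 in cluster c11 and 0.28 in cluster c17, while the part of neurons that fell in c17 was 30.5%, 40.4% and 40.9%. Of the 34 clusters with at least 50 cells in each library, 30 were higher in both repeats and 3 were lower in both. The 3 were both epidermal clusters (c7 and c8) and the red blood cell cluster c14. Globin UMIs outside red blood cells, a measure of free RNA, ran from 0.04% to 0.96% over classes in gControl, from 0.07% to 0.95% in R1 and from 0.04% to 1.62% in R2, and their part in these differences was not tested.

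Epidermis went the other way. The class joined cluster c8 (icn2, krt17, cyt1l) with cluster c7 (irg1l, ccl20a.3), which had epidermal markers but none among its leading genes. The class held 24.05% (24.03 to 24.07) in gControl, 21.17% (21.14 to 21.20) in R1 and 21.44% (21.42 to 21.47) in R2, a log2 difference of -0.17. Several other values of the class moved with it: its cells numbered 1212, 891 and 905, its median cell held 12816, 7722 and 8029 UMIs, and its mitochondrial share was 1.56%, 2.79% and 2.68%. Cluster c8 made up 66.4% of the class in gControl and 37.9% and 37.7% in the repeats. In summed UMIs the share was also lower inside each cluster. The log2 difference was -0.11 in c8 (24.8%, 22.8% and 23.0%) and -0.12 in c7 (21.1%, 19.2% and 19.4%). The median cell of c8 was lower in both repeats (24.81%, 21.96% and 22.01%). That of c7 was lower in R1 only, at 16.39%, 13.81% and 17.63%. Median depths were 14732, 13139 and 13736 UMIs in c8 and 4999, 4508 and 4103.5 in c7. In c7 the shallower cells held 10.09%, 9.34% and 11.84%, and the deeper cells 23.3%, 21.3% and 20.9%. How far depth and the mix of clusters bear on the class value beyond this was not tested.

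Over all cells, 2697 genes passed the minimum level, of which 28.1% were called lower and 11.0% higher, with a median log2 difference of -0.05. Of the 84 ribosomal protein genes, 80 passed it. None of the 80 was called lower, 12 (15%) were called higher, and their median was 0.11. No test stands behind the 0, since 1 pool per condition gives no p. The share of members called higher was near the background at this scaling. With TMM library sizes (trimmed mean of M values, a scaling that assumes most genes keep their level), which raise the median of all genes by 0.21, 61 members were called higher, against 36.6% of genes higher and 11.2% lower. Of the 80 members, 75 were above 0 in both repeats and 0 were below in both, against 41.2% and 51.7% of all tested genes. The 5 others, named here after their values were seen, were rpl9, rpl10, rpl12, rpl15 and rps3a, each above gControl in R1 and below it in R2. The 4 genes under the minimum were rps8b, rpl26, rps19bp1 and the second row with the symbol rpl37 (ENSDARG00000076360). A gene name table lists that last row under another name, so it may not be a ribosomal protein gene.

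The 12 higher genes were not spread evenly over the range. The gene rpl38, whose product is needed in mice for translation of a subset of Hox mRNAs, stood at 747 CPM in gControl, 1688 in R1 and 1491 in R2, a log2 difference of 1.09 (1.079 to 1.099). For rps29 the values were 1333, 2812 and 2744 CPM (log2 1.06), and for rpl29 886, 1761 and 1764 CPM (log2 0.99). For these 3 genes both repeats lay close to double the level of gControl.

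A second tier followed. The small-subunit gene rps28 stood at 1375, 2341 and 2556 CPM (log2 0.83), and rpl37 (ENSDARG00000034291) at 2172, 3532 and 3757 CPM (log2 0.75). For rpl39, which encodes a very small protein of the exit tunnel, the levels were 2747, 4121 and 4441 CPM (log2 0.64), and rps21 stood at 1814, 2673 and 2925 CPM (log2 0.63). The remaining 5 had log2 differences of 0.43 (rpl36), 0.40 (rpl36a), 0.34 (rpl35a), 0.32 (rps26l) and 0.31 (rps26). In R2 these 9 genes were all higher than in R1. Rpl38, Rpl39, Rps28, Rps29 and Rpl37 are among the smallest ribosomal proteins. Protein sizes of the other members, transcript lengths and sequences were not analysed here, so a link between size and difference was not tested. Just outside the limit were rps27.2 (1120, 1343 and 1298 CPM, log2 0.24 with 0.21 in R2), rpl35 (log2 0.22) and rpl34 (log2 0.22), and just inside it was rps26 (0.26 in R1).

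**Figure D2:**
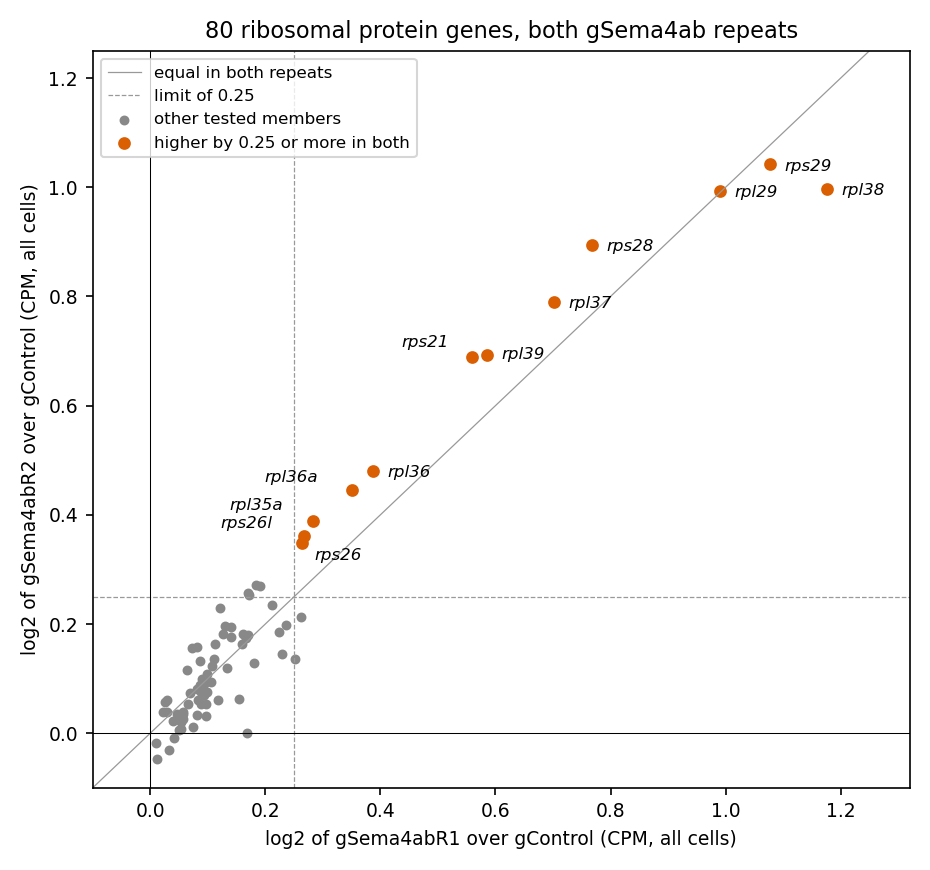
Log2 difference from gControl over all cells for the tested ribosomal protein genes, with R1 on the horizontal and R2 on the vertical axis. The 12 named genes lie beyond 0.25 in both repeats, up to 1.18 in R1 for rpl38, and the rest crowd near 0.09.

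The classes are parts of the cells over which the 12 genes were chosen, so their values by class are a description. For 9 of them the difference was above 0 in both repeats in 21 of 21 classes, and for rps26, rps26l and rpl35a in 20. Each had its lowest value in epidermis and its highest in enteric neurons: rpl38 ran from 0.74 to 1.44 on the log2 scale, rps29 from 0.77 to 1.46, rpl29 from 0.67 to 1.44 and rps28 from 0.56 to 1.39. In neurons rpl38 stood at 305, 812 and 696 CPM. In macrophages and microglia it stood at 666, 1512 and 1315 CPM, and in epidermis at 796, 1418 and 1249 CPM. The gControl library was the lowest in each of these classes although their overall levels differed.

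Summed, the 12 genes took 2.28%, 3.35% and 3.52% of all UMIs (log2 0.59), and by class the difference of the sum ran from 0.30 to 1.07. The other 72 genes took 21.9%, 23.5% and 23.4% (log2 0.10). Without the 12, the share was higher in both repeats in 18 classes and lower in both in 3: epidermis (-0.24), red blood cells (-0.11) and ionocytes (-0.01). The difference in neurons stayed at 0.42 for the other 72 genes and at 0.22 in ERGs. The make-up of the ribosomal protein pool, taken as each tested gene's share of it, differed between gControl and R1 by a root mean square of 0.20 to 0.29 on the log2 scale over classes, against 0.06 to 0.12 between the repeats. With the 12 genes left out the same measures were 0.06 to 0.22 and 0.05 to 0.13. Their medians were then 0.09 for gControl and R1, 0.11 for gControl and R2, and 0.07 for the repeats. The 12 were chosen by their distance between these same libraries, so a smaller distance without them follows from the choice.

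**Figure D3:**
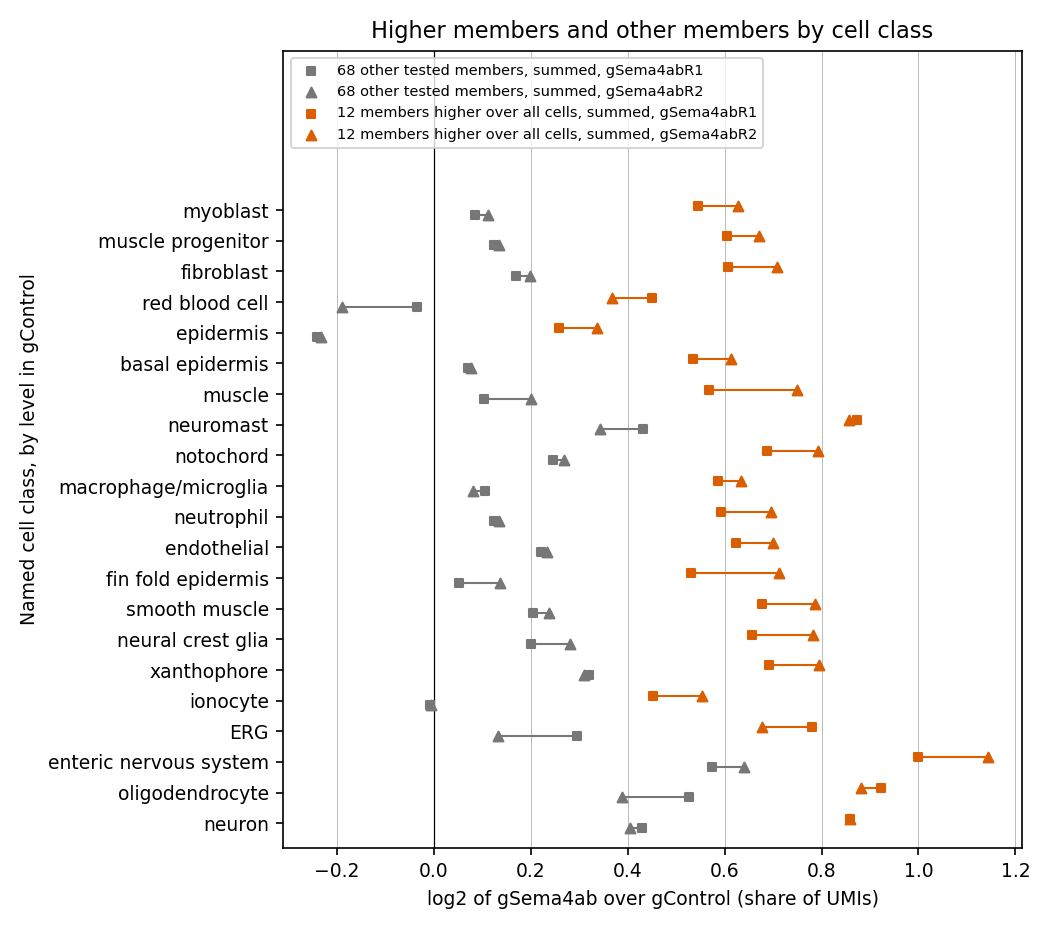
Log2 difference from gControl (horizontal axis) in 21 classes (vertical axis), with 1 point for each repeat. The summed shares of the 12 higher genes and of the 68 other tested genes are shown apart. The sum of the 12 is highest in enteric neurons (0.999 in R1 and 1.144 in R2) and lowest in epidermis (0.259 and 0.337).

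By class, the number of ribosomal protein genes called higher tended to be larger where the log2 difference of the summed share was larger. In neurons 77 of 79 tested members were called higher, against 16.3% of 3941 genes. The unnamed cluster c1, which shares the leading genes rbfox3a and TENM2 with neuron cluster c11, was not part of this class. In c1, 41 of 79 tested members were called higher, against 21.6% of 3704 genes. In enteric neurons all 79 tested were called, against 16.3% of 3518 genes, and in oligodendrocytes 70 of 79, against 17.3% of 2911 genes. In ERGs 26 of 80 were called higher, against 17.1% of genes tested, in fibroblasts 21 of 80 against 14.6%, and in macrophages and microglia 12 of 81 against 6.96%. In epidermis 31 of 81 members were called lower, against 21.5% of 2710 genes, and 6 were called higher, against 39.3%. The median of all tested genes in epidermis was 0.16 and that of the members -0.21. In neurons the medians were -0.07 for all genes and 0.43 for the members. A share of UMIs moves with every other transcript in the cell, so these values do not tell more ribosomal protein mRNA from less of the rest.

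Of the genes picked for particular roles, only rpl38 and rpl39 were called higher over all cells. The UMI counts are not per length, so levels are compared here between libraries and not between genes. Of the ribosomal stalk, which recruits elongation factors, rplp0 stood at 4132, 4681 and 4516 CPM (log2 0.15) and rplp1 at 6629, 7210 and 7768 CPM, the latter being the member with the most UMIs in gControl. The next members by UMIs in gControl were rps20 (5464, 5813 and 5851 CPM), rpl23 (4773, 5261 and 5392 CPM), rpl13 (4711, 4888 and 4776 CPM), rps12 (4556, 5123 and 5442 CPM) and rps14 (4529, 4620 and 4722 CPM). All 5 were higher than gControl in both repeats and none by as much as 0.25 in both. The laminin receptor gene rpsa, whose product is also a small-subunit protein, stood at 3033, 3540 and 3450 CPM (log2 0.20).

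The genes rpl5a, rpl5b and rpl11 encode the partners of the small ribosomal RNA of the large subunit, which also restrain Mdm2. Their log2 differences were 0.09, 0.19 and 0.04. The gene rps19 stood at 4325, 4520 and 4685 CPM (log2 0.09). The gene rps6, whose product is the classical target of S6 kinase, stood at 2179, 2307 and 2231 CPM (log2 0.06), and rps27a, a ubiquitin fusion, at 4212, 4510 and 4441 CPM (log2 0.09). For rpl10 the values were 3951, 3978 and 3901 CPM, so the repeats fell on either side of gControl. The smallest differences of one sign in both repeats were those of rps8a, rpl18, rps7, rpl19 and rpl17, each 0.03. Among the rows outside the rule, RPL37A stood at 2723, 3566 and 3841 CPM (log2 0.44), and faua at 2980, 3329 and 3402 CPM (log2 0.18).

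Within the ribosomal protein pool the share of a gene varied moderately between classes. For 74 of 80 tested genes the highest and lowest class in gControl differed by less than 1 on the log2 scale, with a median range of 0.46 over the 80. The 6 with a wider range were rps27l, rpl22l1, rpl7l1, rplp2, rps27.2 and rpl14. All but rpl14 have a related gene in the set. The share of rpl14 in the pool was 2.56%, 2.24% and 2.80% in oligodendrocytes and 1.265%, 1.231% and 1.301% in muscle progenitors. Next in range came rps20, from 3.12% in xanthophores to 1.68% in ionocytes. The counts of such pairs are uncertain wherever the sequences are near-identical, since reads may then be split or dropped between copies.

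The pair rpl22 and rpl22l1 encodes alternative forms of a large-subunit protein that, in mice, is required for T cell development (Rpl22) and keeps its paralog low. Over all cells rpl22l1 made up 31.7%, 31.7% and 30.5% of the pair. In gControl it ranged from 13.2% (12.9 to 13.6) in epidermis to 46.0% (44.7 to 47.3) in differentiated muscle, with 45.3% in red blood cells, 45.0% in myoblasts, 39.5% (38.9 to 40.1) in macrophages and microglia, 23.7% in neurons and 21.9% in fibroblasts. Epidermis was the lowest class in the repeats as well, at 15.03% and 14.26%. Macrophages and microglia stood at 36.7% and 34.6% in the repeats and red blood cells at 41.4% and 39.8%, below the interval of gControl. In all, 4 classes lay below the gControl interval in both repeats (these, neutrophils and muscle progenitors) and 2 lay above it (epidermis and ionocytes).

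The stalk genes rplp2 and rplp2l showed the opposite division. In gControl rplp2 made up 55.2% (54.9 to 55.5) of the pair in epidermis, 54.5% in oligodendrocytes and 54.7% in ionocytes, and 19.48% (18.99 to 19.99) in myoblasts, with 26.3% in macrophages and microglia. The epidermal value was almost the same in the repeats, at 55.4% and 55.3%, and so was that of myoblasts, at 19.7% and 18.7%. In macrophages and microglia rplp2 stood at 28.6% and 29.7% in the repeats, above the gControl interval of 25.9 to 26.7. In all, 2 classes lay above the gControl interval in both repeats (these and neutrophils) and 2 lay below it (enteric neurons and ionocytes). Enteric neurons stood at 36.2%, 29.8% and 29.3%, and the ionocyte cluster c29 at 56.3%, 49.8% and 49.0%. In neutrophils rplp2 stood at 20.5%, 21.8% and 20.9% in cluster c20 and at 52.6%, 50.8% and 53.9% in c21. Of the pair's UMIs, 33299, 24488 and 26639 came from c20 and 8406, 9852 and 8532 from c21. The part of this mix in the neutrophil value was not tested. For both pairs the classes differed far more than the libraries did.

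**Figure D4:**
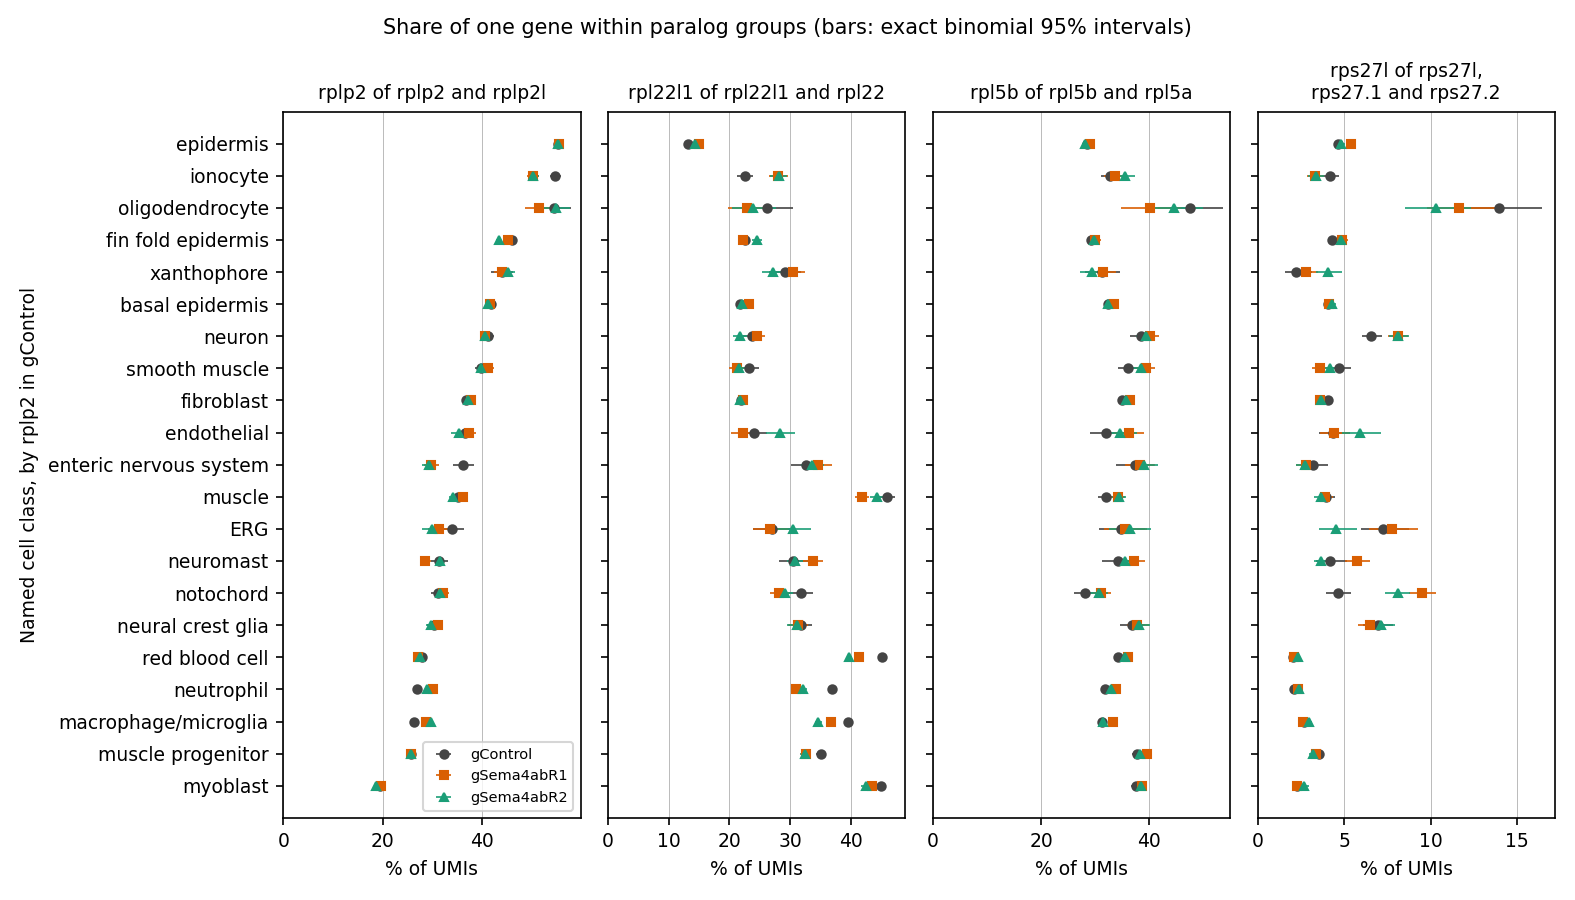
Share of rplp2, rpl22l1 and rpl5b in the UMIs of their pairs (percent) in each class and library. For rps27l it is the share of this gene in the UMIs of rps27l, rps27.1 and rps27.2 together. Epidermis has the least rpl22l1 (13.2% in gControl) and the most rplp2 (55.2%), and myoblasts lie far from it on both (45.0% and 19.5%).

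The same contrast appeared between clusters of a class. In red blood cells rpl22l1 made up 47.99%, 44.25% and 42.80% of its pair in cluster c14 and 23.34%, 19.53% and 19.99% in the globin-led cluster c0, while rplp2 made up 24.03%, 23.64% and 23.53% in c14 and 58.7%, 53.3% and 53.3% in c0. In neutrophils rpl22l1 stood at 42.02%, 37.69% and 38.17% in c20 and at 13.5%, 13.1% and 10.9% in the il1b and mmp9 cluster c21, and rplp2 at 20.5%, 21.8% and 20.9% against 52.6%, 50.8% and 53.9%. In neurons rpl22l1 made up 31.2%, 29.6% and 27.3% in the gap43 cluster c17 and 18.4%, 21.2% and 18.1% in c11, and rplp2 31.4%, 35.1% and 36.1% against 47.8%, 44.3% and 43.4%. In each of these 3 classes, picked after their values were seen, the cluster with the larger ribosomal protein share had more rpl22l1 and less rplp2 in all 3 libraries. In epidermis it did not: c8 had the larger share but less rpl22l1 than c7 (12.64%, 14.02% and 12.77% against 15.98%, 16.44% and 16.52%).

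Across the 34 clusters with at least 50 cells per library, the shares of rpl22l1 and rplp2 ran in opposite directions, with a Pearson's r of -0.81 in gControl, -0.82 in R1 and -0.83 in R2 and a Spearman's rho of -0.79 to -0.82. Against the ribosomal protein share itself, r was 0.47 for rpl22l1 and -0.59 for rplp2 in gControl. These correlations were sought after the values had been seen and describe clusters of the same libraries, so no p is given.

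**Figure D5:**
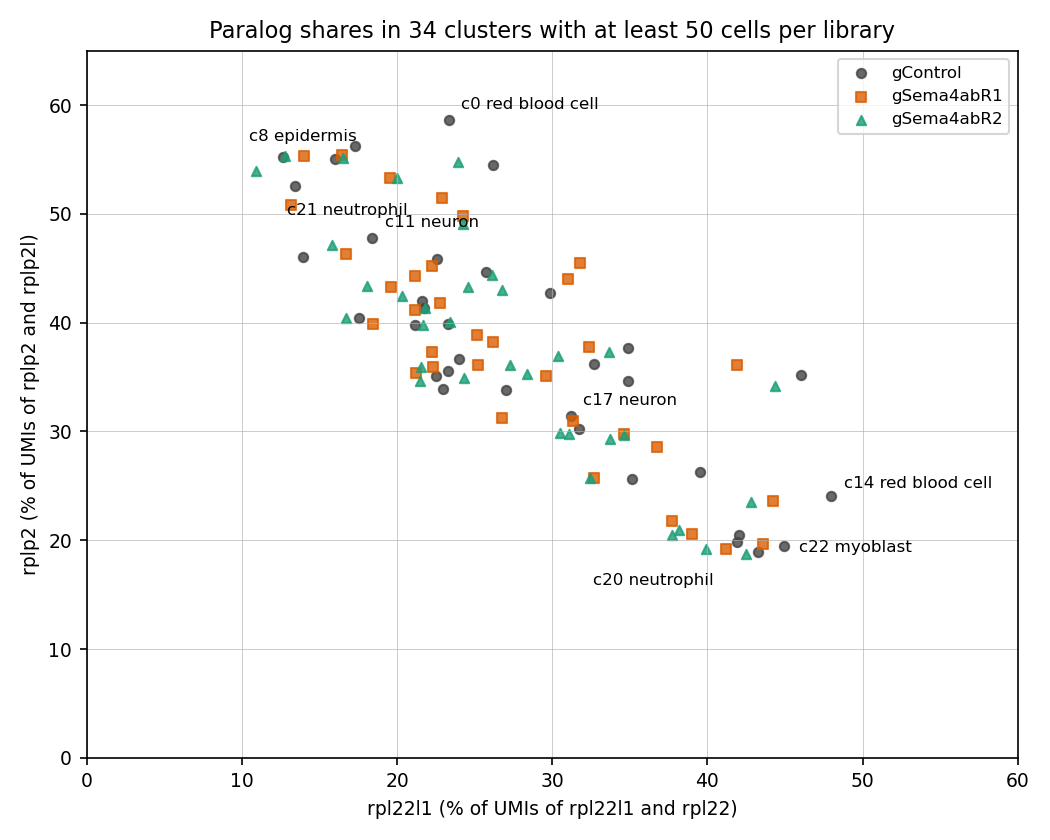
Share of rpl22l1 in its pair (horizontal axis, percent) against that of rplp2 in its pair (vertical axis, percent) in 34 clusters, with 1 point for each cluster and library. Clusters run from the upper left (epidermis c8 at 12.6% and 55.2% in gControl) to the lower right (myoblast c22 at 45.0% and 19.5%).

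The rps27 family has a main copy rps27.1, a second copy rps27.2 and the related gene rps27l, which in mammals responds to p53. Taken as its share of the UMIs of rps27l, rps27.1 and rps27.2 together, rps27l stood at 3.54%, 3.47% and 3.65% over all cells. It was highest in oligodendrocytes, at 13.96% (11.73 to 16.44), 11.65% and 10.3%, and lowest in red blood cells, at 2.02%, 2.13% and 2.34%. In neurons it stood at 6.59% (6.01 to 7.20) in gControl and above that interval, at 8.12% and 8.14%, in the repeats. As a share of the whole ribosomal protein pool it differed 11.1-fold between oligodendrocytes and red blood cells, the widest range of any tested member. The oligodendrocyte value rests on 122 UMIs.

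The share of rps27.2 in the UMIs of the same family was 28.6%, 31.1% and 30.5% over all cells. In gControl it ran from 23.3% in basal epidermis to 41.98% in xanthophores. It lay above the gControl interval in both repeats in 7 classes, among them epidermis (31.3%, 35.6% and 34.8%) and basal epidermis (23.27%, 27.78% and 27.14%), and below it in none of the 21.

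The share of rpl7l1 in its pair with rpl7 was low throughout, at 1.93%, 2.08% and 1.89% over all cells, and in gControl ran from 0.94% in fin fold epidermis to 3.76% in neurons. The share of rpl5b in rpl5a and rpl5b ran from 28.1% in notochord to 47.5% (41.6 to 53.5) in oligodendrocytes, where the repeats stood at 40.2% and 44.5%. Oligodendrocytes were the only class in which this share was lower in both repeats. It was higher in both in 18 of 21 classes, and above the gControl interval in both in red blood cells only. The share of rps26 in rps26 and rps26l ran from 25.4% in xanthophores to 41.5% in smooth muscle. Although both genes of the rps26 pair were called higher over all cells, their division stayed at 36.4%, 36.3% and 36.2%. The gene rps8b was almost silent, with 165 UMIs in gControl beside the abundant rps8a, of which 46 were in neurons. In neurons rps8b made up 1.01% (0.74 to 1.35) of the pair in gControl and 0.42% and 0.35% in the repeats, from 26 and 21 UMIs.

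Other genes of protein synthesis were taken from lists. Of all 2697 tested genes over all cells, 28.1% were called lower and 11.0% higher. Of 28 translation factors and related genes, 20 passed the minimum level, and 0 were called lower and 0 higher (no test gives a p here); their summed share was 2.33%, 2.30% and 2.24%. Within the list the elongation factor eef1a1l1 stood at 5635, 5124 and 5041 CPM and eef2b at 1823, 1645 and 1581 CPM, while rack1, whose product sits on the small subunit, stood at 2140, 2336 and 2224 CPM. Of 59 ribosome biogenesis genes, 25 passed and 1 was called lower, the helicase gene ddx21 (206, 170 and 173 CPM). The nucleolar gene ncl stood at 615, 535 and 506 CPM, and npm1a, which is in both lists, at 470, 488 and 462 CPM. Of 74 mitochondrial ribosomal protein genes, 21 passed, with a median of 0.15. Of the 21, 3 were called higher (mrpl30, mrpl57 and mrps33), a share near the 11.0% of all genes.

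Of 17 listed regulators 7 passed, and 2 were called lower, a share near the 28.1% of all genes: mych, a Myc family gene, at 127, 75.3 and 60.8 CPM, and eif4ebp3, a brake on cap-dependent translation, at 80.03, 61.17 and 59.59 CPM. Of 16 genes of dividing cells 5 passed, and 2 were called higher, against 11.0% of all genes. These were pcna (215, 316 and 272 CPM) and rrm2 (49.9, 86.0 and 68.6 CPM).

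In neurons 14 of 22 tested translation factors and 15 of 21 tested biogenesis genes were called higher, and in enteric neurons 17 of 21 and 9 of 11, against 16.3% of genes in either class. In oligodendrocytes the counts were 11 of 20 and 4 of 9, against 17.3%, and in ERGs 3 of 21 and 4 of 24, against 17.1%. In epidermis 13 of 20 translation factors and 12 of 28 biogenesis genes were called lower, against 21.5%, and the summed level of the dividing-cell genes was 156, 527 and 459 CPM. Whether the latter bears on the epidermal difference was not tested.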

How the data were processed

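Single cells of lesioned zebrafish larvae were profiled in 3 libraries. The deposited count matrices hold UMI counts per gene and barcode, which the authors made with Cell Ranger 7.1.0 on GRCz11 (submitters' processing notes), with an Ensembl annotation per the study's methods; whether intronic reads were counted is not given in the sources used here. Barcodes with at least 200 genes, 500 to 50000 UMIs, under 20% mitochondrial UMIs and at most 20 UMIs per gene were kept, and the top 0.8% per 1000 barcodes by Scrublet score (scanpy 1.11.5) were removed as presumed doublets (1526 to 1594 per library). Cells were clustered with Seurat 5.3.0 in R 4.3.3 (CCA integration, 2000 variable genes, 30 dimensions, resolution 1); no ribosomal protein gene was among the variable genes. Clusters were named from listed markers where at least 3 were found in 10% of cells and were at least 3-fold higher than elsewhere, a rule set after seeing the data, so class names are rebuilt and may differ from the study's.

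Counts were summed per library and class. Log2 differences are the mean of both repeats over gControl with 0.5 UMI added, on the share of all UMIs. Intervals are exact binomial (shares) or conditional binomial (ratios) and cover counting error only. The scripts were tested on simulated data. Members, lists and the rule for named genes were chosen with earlier results of these data known. Named genes are the 6 members with most UMIs, the 8 most variable between classes, the 5 lowest and 5 highest log2 differences, paralogs, members with special roles and the listed pathway genes. The results of a few genes that this rule would name are not reported here. All 84 identifiers matched a gene name table, 75 with the same symbol. Alternatives covered cell filters, scaling (including TMM of edgeR 4.0.16), level minimums, clustering and leaving out each repeat.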

Additional observations from a re-analysis of the deposited data

Results flagged for a closer look

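The ribosomal protein share of epidermis was lower in both gSema4ab repeats (log2 -0.17), whereas it was higher in both in 19 other classes. This difference between classes was not tested, since each condition was 1 pool.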

How the results depend on the processing

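No paired analysis was possible because gControl is a single library, so no replicate number is shared between samples that could be paired. The share over all cells and the medians over classes and named genes kept their direction under every alternative run. The log2 difference of the share over all cells (0.15) was 0.19 with globin UMIs left out of the total, 0.36 with TMM library sizes, 0.23 as the median over cells, and, in alternatives chosen after seeing the data, 0.18 without red blood cells, 0.22 with classes weighted equally and 0.10 without the 12 higher genes. The median over classes (0.24) was 0.20 without cells of mixed markers, 0.39 with TMM and 0.27 as the median over cells, and the median over named genes (0.12) was 0.16 without globin and 0.33 with TMM. TMM raised the median of all genes by 0.21, to 0.16: 36.6% of genes were then called higher and 11.2% lower, against 11.0% and 28.1%, and 61 members were called higher and 0 lower, with a median of 0.32. One member (rps8b) was called lower with no minimum level. The ratio of highest to lowest class (5.70) was 7.63 as the median over cells, 5.12 at resolution 0.5 and 5.53 at resolution 2. Lower classes numbered 3 without the 12 higher genes.

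Leaving out either repeat gave 0.147 to 0.155 for all cells, 0.22 to 0.26 for the class median and 0.12 to 0.13 for the named genes. Lower classes numbered 1 to 2 (red blood cells being the addition without R1) and higher classes 19 to 20. Higher members numbered 14 to 16 and lower members 0. Calls over all genes were not counted for a single repeat, so these member counts have no background beside them. Red blood cells changed sign in 4 of 11 alternatives (-0.13 to 0.24) and rpl10 in 3 of 8, while epidermis ran from -0.35 to -0.14. At resolution 0.5 no cluster was named neural crest glia, so that class has no value there. Of the other values of single classes, genes and pairs, 464 stayed within the spread between repeats or the counting interval and 114 moved beyond it. The summed UMIs of a class leave little counting error, but with 1 pool per condition the spread between animals is unknown. Paralogs with few UMIs, such as rps8b and rps27l in oligodendrocytes, are limited by counting.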
